A study of Arabidopsis thaliana with 72 samples.

Results

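DFR (locus AT5G42800) and UGT78D2 (locus AT5G17050) are 2 genes of flavonoid synthesis in Arabidopsis thaliana, chosen as members because each has a probe set that names it alone on the ATH1 array. They are 2 of the 13513 probe sets of that kind, and each gene is read by 1 probe set. Their signals were followed over 72 arrays in 24 groups of 3: roots and shoots, at 10 kPa or 97 kPa, after 1, 3, 6, 12, 48 or 72 h. All plants were of the Wassilewskija accession, were 10 days old at transfer to the pressure chambers, and stood on plates in constant light. The 10 kPa atmosphere had 2.1 kPa oxygen and the 97 kPa atmosphere had 21 kPa oxygen, with 0.05 kPa carbon dioxide in both, so that total pressure and oxygen changed together and cannot be told apart. The control is called 97 kPa here after most labels, while the samples' descriptions write 101 kPa. Each replicate was a tube of about 12 pooled plants from a separate chamber, divided into roots and shoots (the shoot includes the hypocotyl). In 29 tubes both organs were hybridised.

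Flavonoids are phenolic compounds made from phenylalanine by way of chalcone, flavanones and dihydroflavonols. At the dihydroflavonols the pathway divides: flavonol synthase leads to the colourless flavonols, and dihydroflavonol 4-reductase, the product of DFR, leads to leucoanthocyanidins and from there to the red and purple anthocyanins and to the tannins of the seed coat. DFR is therefore counted among the late genes of the pathway. UGT78D2 encodes a flavonoid 3-O-glucosyltransferase, which adds glucose to flavonols and to anthocyanidins and so serves both branches. In Arabidopsis the anthocyanins accumulate mainly in shoots, under strong light, cold, sugar or nutrient stress.

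Values are MAS5 signals, the brightness of a probe set on a linear scale, and changes are differences in log2 of signal plus a small constant, 10 kPa over 97 kPa; SE is the standard error from limma. "Rose" and "fell" are kept for changes whose limma p, adjusted by Benjamini-Hochberg over all probe sets tested, was below 0.05. Array numbers in the descriptions ran with pressure, except that 4 arrays of 72 h, 1 for each pressure and organ, were numbered apart, so number run and pressure cannot be told apart over most of the series. The 9 green tissue markers that have a probe set of their own, of 18 listed, summed to 3057 to 20841 in root arrays and 114719 to 191985 in shoot arrays. The 3 root markers, of 12 listed, summed to 303.9 to 1821 in root arrays and 16.4 to 169.8 in shoot arrays. Both marker sums thus separated the organs in the way the labels name them.

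DFR rose in shoots at 10 kPa from 3 h onwards. At 3, 6, 12, 48 and 72 h every array at 10 kPa lay above every array at 97 kPa, and the largest change, at 72 h, was 2.24 on the log2 scale (SE 0.35), a 4.72-fold difference. The share of all probe sets whose groups do not overlap was not computed, here or for the separations of groups given below. In bulk tissue, more cells with the transcript and more transcript per cell cannot be told apart.

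After 1 h DFR had signals of 127, 137 and 290.5 in 10 kPa shoots, against 152, 116 and 90.4 in 97 kPa shoots. These groups overlapped, and the change of 0.53 did not pass the test (SE 0.35, adjusted p = 0.486), where 4.37% of all probe sets tested in shoots were called. After 3 h the signals were 575, 382 and 580.2 in 10 kPa shoots, against 184, 302 and 196 in 97 kPa shoots. The groups no longer overlapped, and DFR rose by 1.15 (SE 0.35, adjusted p = 0.0477), when 5.41% of probe sets were called. This call stands at the threshold: without replicate 1 at 10 kPa the change was 1.06 with an adjusted p of 0.196, and without replicate 3 at 97 kPa it was 1.06 with an adjusted p of 0.189. It was also lost without replicate 3 at 10 kPa (1.05, adjusted p = 0.150) and without replicate 1 at 97 kPa (1.02, adjusted p = 0.181).

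At 6 h DFR had signals of 529, 362 and 757 in 10 kPa shoots, against 199.6, 206 and 169 in 97 kPa shoots. The lowest array at 10 kPa was well above the highest at 97 kPa, and DFR rose by 1.42 (SE 0.35, adjusted p = 0.00576), when 11.7% of probe sets were called. Without replicate 3 at 10 kPa the change was 1.16 with an adjusted p of 0.0537. At 12 h the signals were 414, 1604 and 447 in 10 kPa shoots, against 217, 133 and 100.0 in 97 kPa shoots. Replicate 2 at 10 kPa stood far above the other two, which themselves were clear of the controls. DFR rose by 2.16 (SE 0.35, adjusted p = 8.53e-05), when 7.42% of probe sets were called, and by 1.53 without that replicate (adjusted p = 0.00271).

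At 48 h DFR had signals of 899.6, 1148 and 1018 in 10 kPa shoots, against 297, 404 and 416 in 97 kPa shoots. At 72 h the signals were 1811, 1496 and 1178 in 10 kPa shoots, against 382, 289 and 257 in 97 kPa shoots. All 6 arrays of these times at 10 kPa lay far above the highest control of their own time. The rise was 1.44 at 48 h (SE 0.35, adjusted p = 0.00285), when 23.8% of probe sets were called, and 2.24 at 72 h (adjusted p = 2.22e-05), when 19.9% were called.

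Ratios of 3′ to 5′ control signal, a measure of RNA quality, moved with pressure at these late times. The move was larger for GAPDH than for actin. At 48 h the GAPDH ratio was 47.2 to 147 in 10 kPa shoots and 10.1 to 25.4 in 97 kPa shoots. The actin ratio was 50.3 to 54.8 and 34.0 to 44.6 there. At 72 h the GAPDH ratio was 36.1 to 52.0 in 10 kPa shoots and 11.1 to 14.7 in 97 kPa shoots. The actin ratio overlapped there, at 47.8 to 73.6 and 45.3 to 50.0. The mean log2 ratio of 3′ to 5′ signal of the GAPDH and actin control probe sets was 5.61 to 6.49 at 48 h and 5.64 to 5.76 at 72 h in 10 kPa shoots, against 4.29 to 4.88 at 48 h and 4.49 to 4.76 at 72 h in 97 kPa shoots. With that ratio as a covariate DFR's change was 1.17 at 48 h (adjusted p = 0.232) and the call was lost, whereas at 72 h it stayed past the threshold, its highest adjusted p over all alternatives being 0.00715. The ratio's own part in the 48 h result was not tested beyond this covariate. In shoots at 1 h the actin ratio was also higher, at 44.1 to 65.5 under 10 kPa and 30.5 to 35.0 under 97 kPa, while the GAPDH ratio overlapped. In roots the mean log2 ratio was lower under 10 kPa at 3 h (6.10 to 6.41, against 6.71 to 6.86) and barely so at 48 h (6.02 to 6.716, against 6.720 to 7.03).

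**Figure D1:**
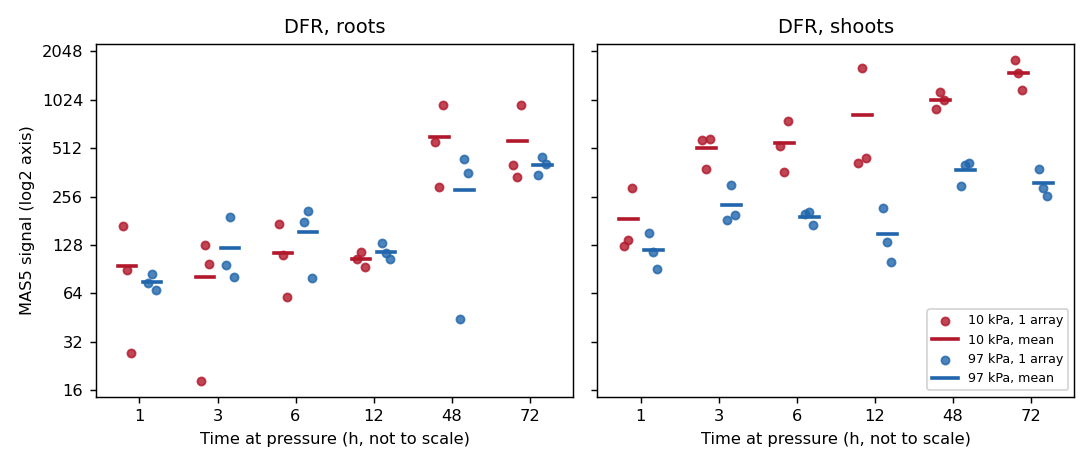
MAS5 signal of DFR (log2 axis) by time at pressure (h), roots left and shoots right. Points are single arrays (3 per group) and bars are group means, with 10 kPa in red to the left of 97 kPa in blue. In shoots the groups are apart at 3 to 72 h, and in roots they overlap at all 6 times.

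In roots no pressure comparison of DFR passed the test, and the 10 kPa and 97 kPa arrays overlapped at all 6 times. DFR reached the 40th percentile of its array on 17 of 36 root arrays, against 35 of 36 shoot arrays. From 1 to 12 h this was 3 of 12 root arrays at 10 kPa and 3 of 12 at 97 kPa. It stood higher later: at 48 h its percentiles were 59.8 to 85.1 in 10 kPa roots and 18.4 to 67.1 in 97 kPa roots. At 72 h they were 61.2 to 85.5 in 10 kPa roots and 62.5 to 68.4 in 97 kPa roots.

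The signals at 1 h were 168, 90.0 and 27.2 in 10 kPa roots, against 74.6, 84.0 and 66.9 in 97 kPa roots. At 3 h they were 18.3, 129 and 97.2 in 10 kPa roots, against 95.7, 190.3 and 80.4 in 97 kPa roots. The spread between the 3 arrays at 10 kPa was wider than any distance between the means, and the changes were 0.03 (SE 0.61, adjusted p = 0.991) at 1 h and -0.74 (adjusted p = 0.637) at 3 h, when 3.57% and 6.02% of the probe sets tested in roots were called. At 6 h DFR had signals of 172, 111 and 61.1 in 10 kPa roots, against 177, 208 and 79.3 in 97 kPa roots. At 12 h the signals were 105, 115 and 93.8 in 10 kPa roots, against 131, 114 and 105 in 97 kPa roots. The arrays of 12 h were the closest to each other, and the changes were -0.41 (adjusted p = 0.778) at 6 h and -0.14 (adjusted p = 0.925) at 12 h, when 9.20% and 12.0% were called.

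DFR's root signal was higher at 48 and 72 h under both pressures. At 48 h it was 560.5, 295 and 949 in 10 kPa roots, against 44.2, 439 and 358 in 97 kPa roots. At 72 h it was 403, 339 and 953 in 10 kPa roots, against 349, 453 and 410.0 in 97 kPa roots. In both 10 kPa groups replicate 3 was the highest by a wide margin, and at 48 h replicate 1 at 97 kPa was far below its group. The change at 48 h was 1.42 (SE 0.61, adjusted p = 0.135, when 11.5% were called) and 0.44 (adjusted p = 0.690) when that low control array was left out. At 72 h it was 0.33 (adjusted p = 0.816, when 8.17% were called).

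UGT78D2 rose in shoots at 10 kPa within the first hour. At all 6 times every array at 10 kPa lay above every array at 97 kPa, and 5 of the 6 changes passed the test. Over all probe sets tested in shoots 4.37%, 5.41%, 11.7%, 7.42%, 23.8% and 19.9% were called at those 6 times. UGT78D2's largest change was that at 1 h, 1.48 (SE 0.22), a 2.79-fold difference, where DFR had not passed. Green tissue markers moved with pressure in shoots at the same early times: 4 of the 9 fell at 1 h, with a median of -0.42, and 3 of the 9 at 3 h, with a median of -0.27. Their summed signal at 1 h was 114719 to 122622 in 10 kPa shoots and 156642 to 178840 in 97 kPa shoots, and at 3 h it was 146478 to 169133 in 10 kPa shoots and 184088 to 191985 in 97 kPa shoots. At 6 and 12 h 2 of the 9 fell at each time, at 48 h 3 fell and at 72 h 1 fell, while 1 rose at each of 6, 48 and 72 h; the sums overlapped at these 4 times. Their part in the changes of DFR and UGT78D2 was not tested.

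At 1 h UGT78D2 had signals of 1490.3, 1845 and 1165 in 10 kPa shoots, against 704, 455 and 446 in 97 kPa shoots. The lowest array at 10 kPa was well clear of the highest control, and the rise of 1.48 had an adjusted p of 5.40e-05. It kept its call under all 16 alternatives tried, with changes of 1.32 to 1.69. At 3 h the signals were 962, 818 and 963 in 10 kPa shoots, against 557, 562 and 419 in 97 kPa shoots. The rise was 0.83 (SE 0.22, adjusted p = 0.0211), and it missed the threshold without replicate 3 at 97 kPa (0.70, adjusted p = 0.157), without replicate 1 at 10 kPa (0.79, adjusted p = 0.10) and without replicate 3 at 10 kPa (0.79, adjusted p = 0.0723). At 6 h the signals were 733, 742 and 838 in 10 kPa shoots, against 556, 479 and 672 in 97 kPa shoots. The sets did not overlap, but the 97 kPa arrays were spread from 479 to 672, and the change of 0.44 did not pass the test (SE 0.22, adjusted p = 0.226).

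At 12 h UGT78D2 had signals of 532, 1177 and 587 in 10 kPa shoots, against 387, 434 and 436 in 97 kPa shoots. Replicate 2 at 10 kPa was again the high one, as it was for DFR. The rise of 0.76 (SE 0.22, adjusted p = 0.0283) became 0.41 without it, with an adjusted p of 0.333. Leaving out any 1 of the 3 controls at 12 h also ended the call, with changes of 0.71, 0.79 and 0.79 and adjusted p-values of 0.0953, 0.0670 and 0.0671 for replicates 1, 2 and 3. At 48 h the signals were 622, 658 and 606 in 10 kPa shoots, against 459.6, 412 and 361 in 97 kPa shoots. At 72 h they were 839, 716 and 687 in 10 kPa shoots, against 552, 309 and 472 in 97 kPa shoots.

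These late groups did not overlap, and the rises were 0.61 at 48 h (SE 0.22, adjusted p = 0.0436) and 0.77 at 72 h (adjusted p = 0.0121). At 48 h the call was lost when any 1 array other than replicate 1 at 97 kPa was left out, with changes of 0.52 to 0.69 over the 6 omissions. At 72 h it was lost without replicate 1 at 10 kPa (0.69, adjusted p = 0.0590) and without replicate 2 at 97 kPa (0.54, adjusted p = 0.125). With the 3′ to 5′ ratio as a covariate the changes were 0.32 at 48 h (adjusted p = 0.671) and 0.55 at 72 h (adjusted p = 0.295), so neither late call of UGT78D2 stood with it.

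**Figure D2:**
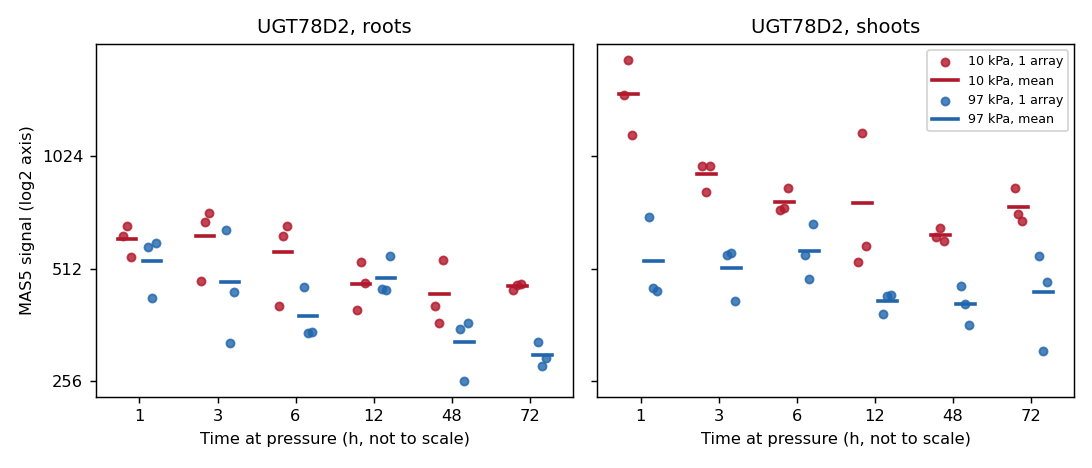
MAS5 signal of UGT78D2 (log2 axis) by time at pressure (h), roots left and shoots right. Points are single arrays (3 per group) and bars are group means, with 10 kPa in red to the left of 97 kPa in blue. The highest group is 10 kPa shoots at 1 h, with arrays between 1165 and 1845.

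In roots UGT78D2 did not pass the pressure test at any time, although its signal was not low there: it reached the 40th percentile on 36 of 36 arrays in roots and in shoots. At 1 h it had signals of 625, 667 and 549 in 10 kPa roots, against 585, 427 and 598 in 97 kPa roots. At 3 h the signals were 474, 681 and 719 in 10 kPa roots, against 649, 324 and 444 in 97 kPa roots. The groups overlapped at both times, with changes of 0.20 (SE 0.23, adjusted p = 0.812) and 0.43 (adjusted p = 0.340). At 6 h they were 408, 626 and 665 in 10 kPa roots, against 457, 344 and 347 in 97 kPa roots. At 12 h they were 397, 534 and 469 in 10 kPa roots, against 453, 448 and 552 in 97 kPa roots. Again the groups overlapped, with changes of 0.54 (adjusted p = 0.141) and -0.06 (adjusted p = 0.918).

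At 48 h UGT78D2 had signals of 407, 367.1 and 541 in 10 kPa roots, against 354, 257 and 366.4 in 97 kPa roots. At 72 h the signals were 448, 463 and 467 in 10 kPa roots, against 325, 281 and 296 in 97 kPa roots. The groups were apart at both times, by less than 1 signal unit at 48 h and by a clear margin at 72 h. The changes, 0.42 at 48 h (adjusted p = 0.245) and 0.60 at 72 h (adjusted p = 0.0967), had intervals of -0.04 to 0.87 and 0.14 to 1.06, which include changes of the size measured in shoots at those times.

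The 4 arrays of 72 h that were numbered apart allow 1 comparison of pressure per organ within a run, with no replicates. In that run the shoot signal of DFR was 1496 under 10 kPa and 257 under 97 kPa, a ratio of 5.83, and its root signal was 339 under 10 kPa and 453 under 97 kPa. UGT78D2 had 716 under 10 kPa and 472 under 97 kPa in shoots, a ratio of 1.52, and 463 and 281 for the same pressures in roots, a ratio of 1.65. The shoot pairs of both genes and the root pair of UGT78D2 ran in the direction of their 3-array comparisons. DFR's root pair, with a ratio of 0.75, ran against its 3-array change of 0.33, which did not pass.

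Of the changes of the pressure effect over time, 1 passed the test, DFR's late change in shoots. DFR's effect in shoots was larger over 48 and 72 h than over 1 and 3 h, by 1.00 on the log2 scale (SE 0.35, adjusted p = 0.0438), when 18.2% of probe sets were called. With the 3′ to 5′ ratio as a covariate that difference was 0.80 (adjusted p = 0.326). For UGT78D2 in shoots the late minus early difference was -0.47 and did not pass (SE 0.22, adjusted p = 0.148). No test compared the genes with each other. From 1 and 3 h to 6 and 12 h neither gene passed in shoots: the difference was 0.95 for DFR (adjusted p = 0.220) and -0.55 for UGT78D2 (adjusted p = 0.278), when 1.01% were called. In roots the late minus early differences were 1.23 for DFR (SE 0.61, adjusted p = 0.278) and 0.19 for UGT78D2 (adjusted p = 0.720), when 5.21% were called. Those from 1 and 3 h to 6 and 12 h were 0.08 for DFR and -0.08 for UGT78D2 (adjusted p = 0.980 and 0.944), when 1.35% were called.

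**Figure D3:**
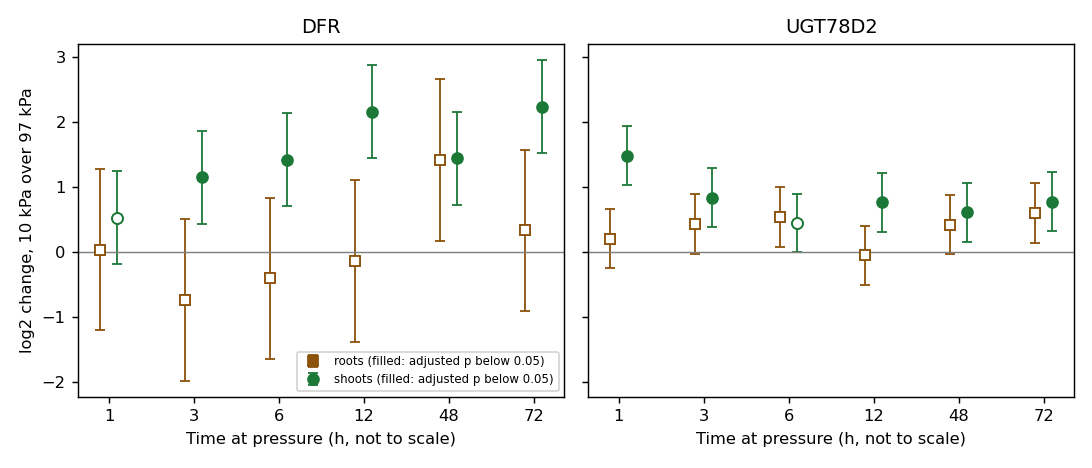
Change of DFR (left) and UGT78D2 (right) at 10 kPa over 97 kPa on the log2 scale, by time (h), in roots (brown squares) and shoots (green circles). Bars are 95% intervals of the limma fit, and filled symbols have an adjusted p below 0.05. In shoots DFR runs between 0.53 at 1 h and 2.24 at 72 h, while UGT78D2 is highest at 1 h (1.48).

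Within a single pressure the levels of both genes also moved over time, in opposite directions, by contrasts of 48 and 72 h with 1 and 3 h that were chosen after the data had been seen. DFR rose late in both organs at both pressures. In roots it rose by 2.75 at 10 kPa (SE 0.43, adjusted p = 8.33e-06) and by 1.52 at 97 kPa (adjusted p = 0.00941), when 29.1% and 24.1% of probe sets were called. In shoots it rose by 2.02 at 10 kPa (SE 0.25, adjusted p = 1.38e-07) and by 1.01 at 97 kPa (adjusted p = 0.00301), when 30.6% and 22.5% were called. UGT78D2 fell by 0.45 in 10 kPa roots (SE 0.16, adjusted p = 0.0295) and fell by 0.64 in 97 kPa roots (adjusted p = 0.00284), and both calls were lost with the 3′ to 5′ ratio as a covariate (adjusted p = 0.153 and 0.102). In shoots UGT78D2 fell by 0.75 at 10 kPa (adjusted p = 0.000350), and its change of -0.29 at 97 kPa did not pass (adjusted p = 0.196). At 97 kPa the array numbers of 1 and 3 h formed a run apart from all later controls. At 10 kPa the numbers followed time, except for the arrays of 72 h numbered apart. Array number and time therefore cannot be told apart at either pressure.

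Green tissue markers rose late in roots as well: 7 of the 9 at 10 kPa, with a median change of 1.74, and 4 of the 9 at 97 kPa, with a median of 0.54, where the median over all probe sets tested was 0.01 and 0.03. The 3 root markers were lower late in roots in part: 1 fell at 10 kPa, with a median of -0.10, and 3 fell at 97 kPa, with a median of -0.97. Over all probe sets tested in roots 13.7% rose late at 10 kPa and 11.5% at 97 kPa, while 15.4% and 12.6% fell. At 48 h the green markers summed to 12135 to 19902 in 10 kPa roots and to 5014 to 11155 in 97 kPa roots, without overlap. At 72 h the sums overlapped, at 12096 to 20841 in 10 kPa roots and 10024 to 15608 in 97 kPa roots. At 1 and 3 h the sums were 3057 to 7462 in 10 kPa roots and 4042 to 5936 in 97 kPa roots. These sums remained below the lowest shoot array, 114719. Markers moved with pressure within roots too. At 48 h 3 of the 9 green markers rose and 0 fell, when 5.33% of all probe sets rose. All 3 root markers fell at 3 h, with a median of -1.78, when 3.44% of all probe sets fell. At 1, 6, 12 and 48 h 1 root marker fell each time, when 1.44%, 4.60%, 6.37% and 6.20% fell. The part of either marker list in DFR's late rise or pressure changes in roots was not tested.

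The pressure effects of the organs differed for both genes when averaged over the 6 times. The root minus shoot difference of the effect was -1.41 for DFR (SE 0.30, adjusted p = 0.000268) and -0.46 for UGT78D2 (SE 0.13, adjusted p = 0.00519), when 25.9% of the probe sets in the fit of both organs were called. The mean log2 3′ to 5′ ratio was 5.93 to 7.85 in root arrays and 4.26 to 6.49 in shoot arrays, and with it as a covariate UGT78D2's difference was -0.43 (adjusted p = 0.144), while DFR's kept its call. At single times the difference passed for UGT78D2 at 1 h only, with -1.28 (SE 0.32, adjusted p = 0.0195), when 1.70% were called. For DFR it was -0.49, -1.89, -1.83, -2.30, -0.03 and -1.91 at 1, 3, 6, 12, 48 and 72 h (SE 0.75), and the lowest adjusted p was 0.0560, at 12 h. The share of probe sets called at 3, 6, 12, 48 and 72 h was 1.84%, 6.34%, 5.21%, 9.33% and 6.65%. UGT78D2's differences at those 5 times were -0.40, 0.09, -0.82, -0.19 and -0.17 (SE 0.32, lowest adjusted p = 0.133).

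Root levels themselves were lower than shoot levels at 10 kPa, with root minus shoot differences of -1.85 for DFR (SE 0.22, adjusted p = 2.01e-11) and -0.69 for UGT78D2 (SE 0.09, adjusted p = 1.33e-09). That contrast called 78.7% of all probe sets, so a difference between organs was common. At 97 kPa, where 79.9% were called, UGT78D2's difference was -0.22 (adjusted p = 0.0234, or 0.500 with the 3′ to 5′ ratio as a covariate), while DFR's difference of -0.44 did not pass (SE 0.22, adjusted p = 0.0560).

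Over all 24 groups DFR's mean signal covered a 19.9-fold range. The order was headed by 10 kPa shoots at 72 h (1495 ± 316, SD, n = 3), 48 h (1022 ± 124) and 12 h (821 ± 678), followed by 10 kPa roots at 48 h (601 ± 329) and 72 h (565 ± 338). The lowest means were those of 10 kPa roots at 3 h (81.4 ± 56.9) and 97 kPa roots at 1 h (75.2 ± 8.5). Of the 23 pairs of neighbours in that order, only the first, 10 kPa shoots at 72 h and at 48 h, had no overlap of arrays. The highest 97 kPa groups were roots at 72 h (404 ± 52.3) and shoots at 48 h (372 ± 65.3), which overlapped each other.

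UGT78D2's means covered a 4.99-fold range. The 6 groups of 10 kPa shoots held the 6 highest places, from 1 h (1500 ± 340, SD, n = 3) and 3 h (914 ± 83.5) down to 48 h (629 ± 26.4). The lowest means were those of 97 kPa roots at 48 h (326 ± 59.8) and 72 h (301 ± 22.6). Neighbours were clear of each other in 2 of 23 pairs, the first and the fifth. The group means of the 2 genes, each set relative to its organ's mean on the log2 scale, had a Pearson correlation of -0.09 over the 24 groups, -0.63 over the 12 groups of roots and 0.21 over the 12 groups of shoots.

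The rest of the pathway was read through a list of 65 flavonoid genes, of which 13 had a probe set naming them alone, 10 were tested in shoots and 6 in roots. None of the 9 general phenylpropanoid genes and none of the 4 transport genes listed was among the 13, and the tables name no single-gene probe set for chalcone synthase, flavonol synthase or leucoanthocyanidin dioxygenase. The remaining 8 genes tested in shoots beside DFR and UGT78D2 were HYH, a bZIP factor of light signalling related to HY5; TRY, an R3-MYB repressor known from trichome patterning; CHIL, a non-catalytic partner of chalcone synthase; UGT78D1, a flavonol 3-O-rhamnosyltransferase; UF3GT, a glycosyltransferase of anthocyanins; AT5MAT, an anthocyanin malonyltransferase; and the loci AT4G14090 and AT1G06000.

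Of these 8 genes 4 rose in shoots at 1 h, 4 at 3 h, 3 at 6 h, 6 at 12 h, 3 at 48 h and 5 at 72 h, and none fell. Over all probe sets tested in shoots 2.27%, 2.54%, 5.80%, 3.82%, 10.4% and 9.36% rose at those 6 times. AT5MAT, counted at 48 and 72 h, passed the filter in shoots only through 10 kPa arrays. Its highest 97 kPa shoot signal was 87.2, and the lowest filter cutoff of any array was 89.6. A gene admitted in this way could hardly fall, so AT5MAT adds no support to these counts. With 1 array left out HYH passed as lower at 48 h in 2 cases, at -0.53 without replicate 1 at 10 kPa (adjusted p = 0.0459) and at -0.54 without replicate 3 at 97 kPa (adjusted p = 0.0404). The median changes of the 8 genes over those 6 times were 0.79, 0.98, 0.88, 1.34, 0.73 and 1.39, where the median over all probe sets tested lay between -0.04 and 0.04. AT1G06000 rose at all 6 times, by 0.87 to 1.61, and UGT78D1 at 5, by 1.90 (SE 0.27, adjusted p = 6.06e-06) at 72 h. TRY did not pass at any time, with changes of 0.06 to 0.66.

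The times at which single genes rose in shoots were not all the same. CHIL rose at 1, 3, 6 and 12 h, by 1.36, 1.53, 1.56 and 1.74 (SE 0.31), and its changes of 0.11 at 48 h and 0.65 at 72 h did not pass. HYH rose at 1, 3 and 12 h, by 1.20, 0.78 and 0.90 (SE 0.18). The pressure effect of both was smaller over 48 and 72 h than over 1 and 3 h, by differences of -1.07 for CHIL (SE 0.31, adjusted p = 0.0137) and -1.13 for HYH (SE 0.18, adjusted p = 2.61e-05), when 10.5% of probe sets were called lower. The differences of CHIL and HYH were not recomputed with the 3′ to 5′ ratio as a covariate. With it 916 probe sets were called in this contrast, against 2869 without it. Of the other eight genes of the 10, DFR passed that test as larger late (lost with the 3′ to 5′ ratio, as above), and 7 did not pass. AT4G14090 rose at 12, 48 and 72 h, by 1.85, 1.53 and 1.72 (SE 0.49), UF3GT at 12 and 72 h, by 1.77 and 2.05 (SE 0.46), and AT5MAT at 48 and 72 h, by 1.35 and 1.49 (SE 0.45). Their late minus early differences, 0.94, 0.80 and 1.12, did not pass (adjusted p = 0.192, 0.234 and 0.0833).

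These counts varied with the arrays and the fit used. At 12 h replicate 2 of 10 kPa shoots had the highest signal of the 3 for all 10 flavonoid genes, whereas over all probe sets tested in shoots it was the highest for 33.6%. With that array left out, 4 of the 10 genes rose at 12 h, against 8 with it, and the median change was 1.02 against 1.34. With 1 of the controls left out 6 or 7 rose at 12 h. With 1 array left out the count of 5 at 1 h ran between 3 and 5, that of 6 at 3 h between 2 and 5, and that of 5 at 48 h between 1 and 5. With all 72 arrays in 1 fit 4, 3, 2, 4, 1 and 5 of the 10 rose at 1, 3, 6, 12, 48 and 72 h, against 5, 6, 4, 8, 5 and 7. With the 3′ to 5′ ratio as a covariate 0 of the 10 rose at 48 h and 3 at 72 h, against 5 and 7 without it.

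**Figure D4:**
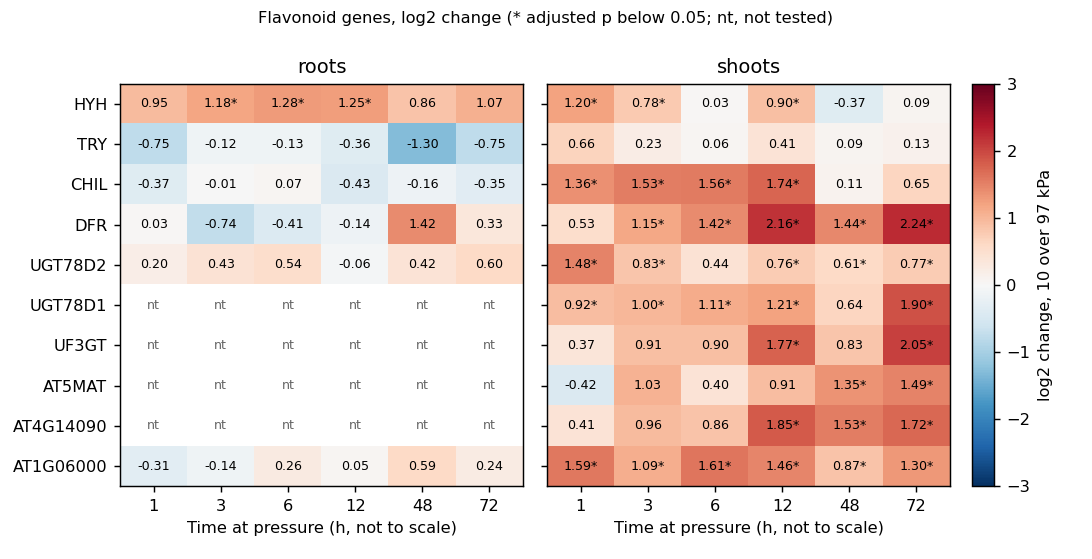
Change at 10 kPa over 97 kPa on the log2 scale (colour and number) of the 10 flavonoid genes tested in shoots, by time (h), in roots (left) and shoots (right). A star marks an adjusted p below 0.05, and nt marks a gene whose signal was too low to be tested. In shoots no gene has a starred negative value, and in roots the only stars are those of HYH at 3, 6 and 12 h.

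In roots 4 genes of the list were tested beside DFR and UGT78D2, and 1 of them rose. HYH rose at 3, 6 and 12 h, by 1.18, 1.28 and 1.25 (SE 0.37, adjusted p = 0.0473, 0.0219 and 0.0201). With 1 array left out the call was lost in 6 of 6 cases at 3 h, 4 of 6 at 6 h and 3 of 6 at 12 h, with changes of 1.01 to 1.30, 1.06 to 1.48 and 1.02 to 1.37. It was also lost with the 3′ to 5′ ratio as a covariate at 3 h (0.67, adjusted p = 0.503) and 12 h (1.01, adjusted p = 0.0592). Over all probe sets tested in roots 2.13%, 2.57%, 4.60%, 5.67%, 5.33% and 3.53% rose at 1, 3, 6, 12, 48 and 72 h. CHIL ran between -0.43 and 0.07, AT1G06000 between -0.31 and 0.59 and TRY between -1.30 and -0.12, and none of these passed. The root minus shoot difference of the effect, averaged over the 6 times, was negative for CHIL (-1.37, SE 0.16, adjusted p = 3.28e-10), AT1G06000 (-1.20, SE 0.16, adjusted p = 1.26e-08) and TRY (-0.83, SE 0.26, adjusted p = 0.0125). It was positive for HYH, at 0.66 (SE 0.17, adjusted p = 0.00279). Over all probe sets of that fit 14.8% were called lower and 11.1% higher in roots. The organ differences of CHIL, AT1G06000, TRY and HYH were not recomputed with the 3′ to 5′ ratio as a covariate. With it 2089 probe sets were called in that contrast, against 4630 without it. The other four genes were too low in roots to be tested there, and no difference between organs is given for them.

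UGT78D2 lies on chromosome 5 next to AT5G17040, which is followed by UGT78D3, by the order of genes in the RefSeq table (assembly TAIR10.1), and both have a probe set of their own. UGT78D3 had signals of 1.9 to 69.7 and AT5G17040 of 3.3 to 126 over all arrays, too low to be tested in either organ. BAN, the anthocyanidin reductase of seed coat tannins, ran from 2.2 to 101 and was not tested either.

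The genes whose pattern was most like that of each member were found among 9940 single-gene probe sets that passed the filter in the fit of both organs, by the Pearson correlation of 24 group means of log2 signal, each relative to the mean of its organ. These means share their arrays, so the correlations are descriptions. The rises of these genes given below come from the same arrays and follow in part from the choice, so they are descriptions too. Over all probe sets tested in shoots 2.27%, 2.54%, 5.80%, 3.82%, 10.4% and 9.36% rose at 1, 3, 6, 12, 48 and 72 h. For DFR the 5 highest were AT3G26960 (r = 0.888), AT3G06035 (0.888), AT4G14090 (0.887), AT3G14395 (0.884) and AT1G64890 (0.881). AT4G14090 is also on the flavonoid list, and the other four are given by locus alone in the tables used. In shoots AT3G06035 rose at all 6 times, by 0.68 to 1.19. AT3G14395 rose at 72 h alone in shoots, by 3.13 (SE 0.79, adjusted p = 0.00446).

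For UGT78D2 the 5 highest were AT3G48460 (r = 0.857), GH9C2 (0.806), AT1G47400 (0.803), AT3G24190 (0.795) and AT3G44450 (0.794). GH9C2 belongs to the glycosyl hydrolase family of endoglucanases. No gene of the flavonoid list was among these 5, and DFR and UGT78D2 were not in each other's 5: UGT78D2 stood at place 6189 for DFR. AT3G24190 rose at all 6 times in shoots, by 0.51 to 1.22, and GH9C2 rose at 1, 3, 6 and 48 h, by 0.95, 0.88, 1.12 and 0.73 (SE 0.22). Both were picked by their likeness to UGT78D2 on these arrays, so the rises are descriptions. In roots the correlations with UGT78D2 over 12 groups were lower for AT3G24190 (0.587) and AT3G44450 (0.487) than those in shoots (0.876 and 0.886).

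**Figure D5:**
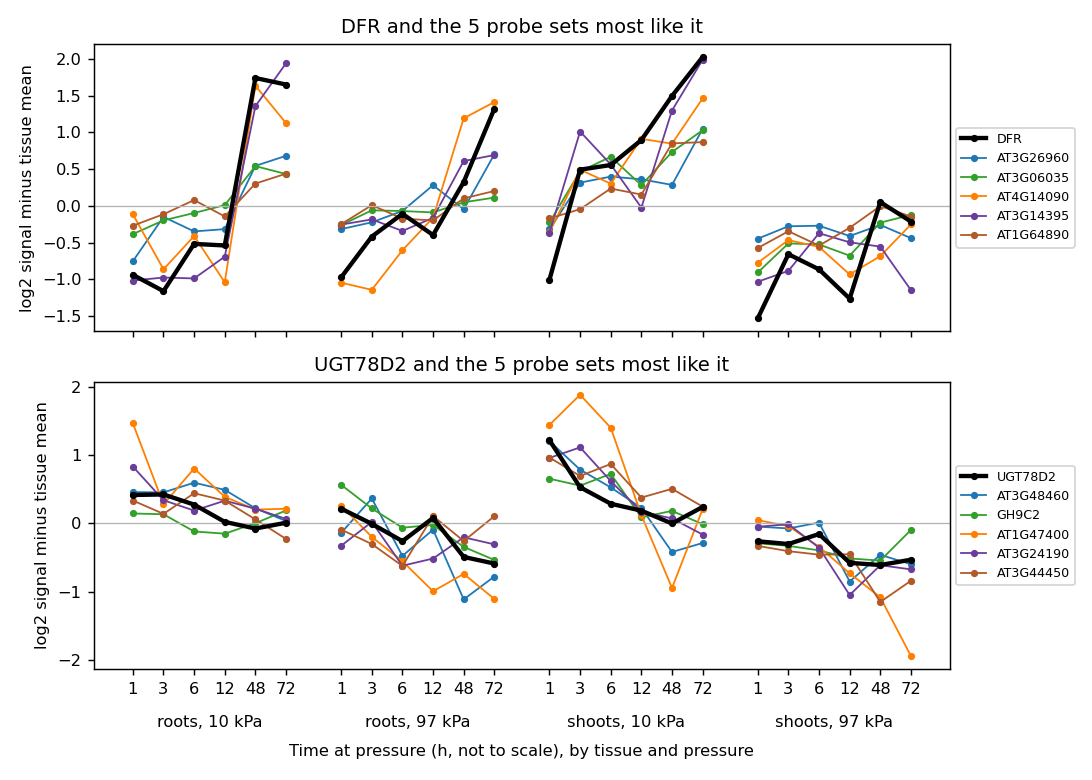
Group mean log2 signal relative to the mean of its organ, by organ, pressure and time (h), for DFR (top, black) and UGT78D2 (bottom, black) with the 5 probe sets of highest correlation in colour. DFR and its 5 are highest at 72 h and 10 kPa among shoots, and at 48 or 72 h among roots; UGT78D2 and its 5 are high in 10 kPa shoots at 1 and 3 h.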

How the data were processed

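RNA of 72 root and shoot samples was labelled with a 3′ IVT kit and hybridised to 1 ATH1 array each. The authors deposited signal intensities on a linear scale. Per the submitters' processing notes these came from MAS5 in Affymetrix Expression Console; version numbers: not given in the sources used here. After trimming 2% at each end, array means lay at 500.1, so a common scaling had been applied and none was added. With 3 arrays in a group and no read depth to count, the number of arrays sets the precision.

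A pseudocount of 8.90 (10th percentile of the table) was added to each signal before log2, which understates changes of low signals. The 64 control probe sets of 22810 were left out. Testing was limited to probe sets at or above the 40th percentile of the array on 3 or more arrays, which was 16637 for roots, 15766 for shoots and 17875 for both organs together. Each organ's 36 arrays had 1 limma fit, and all 72 had another (limma 3.58.1, R 4.3.3; lmFit on group means and eBayes with trend; residual degrees of freedom 24 and 48). All tests are two-sided, with Benjamini-Hochberg adjustment over all probe sets tested. Of 13513 probe sets with 1 gene name, 13436 matched the reference table. The procedure was tested on simulated data.

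The members, the gene lists and the naming rule were chosen with earlier results of these data known. The rule names DFR, UGT78D2, every list gene with a probe set of its own, and for each member the 5 probe sets of highest correlation. Alternatives were quantile normalization, no pseudocount (floor 1.87), a pseudocount of 50.8, no filter, a 60th percentile filter, no variance trend, the 3′ to 5′ ratio as a covariate, a replicate block, the tube as a random block, only the 6 arrays of a comparison, all 72 in 1 fit, each replicate left out, and the 4 arrays of 72 h numbered apart left out. Replicate numbers recur at both pressures, but same-numbered deviations correlated at -0.07 to 0.10, so the numbers were not taken as pairs.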

Additional observations from a re-analysis of the deposited data

Results flagged for a closer look

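The pressure effects of roots and shoots differed by a test of the difference itself in 3 results. UGT78D2 at 1 h had a root minus shoot difference of -1.28 (SE 0.32, adjusted p = 0.0195, limma), when 1.70% of probe sets were called. Its signals at 10 kPa were above those at 97 kPa in all 3 shoot arrays. Averaged over the 6 times the difference was -1.41 for DFR (SE 0.30, adjusted p = 0.000268) and -0.46 for UGT78D2 (SE 0.13, adjusted p = 0.00519), when 25.9% of probe sets were called. UGT78D2's mean difference lost its call with the 3′ to 5′ ratio as a covariate (adjusted p = 0.144). DFR's mean difference kept its call under the 11 alternatives tried, with values of -1.65 to -1.22.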

How the results depend on the processing

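Of 693 recomputed values over the 58 results of DFR and UGT78D2, 0 reversed a called direction, 18 of DFR and 26 of UGT78D2 lost a call and 5 of DFR gained one. DFR in shoots at 12 and 72 h, UGT78D2 in shoots at 1 h and DFR's mean organ difference kept their calls throughout. In roots before 48 h DFR was below the 40th percentile on most arrays, and the part of this in its root results was not tested. Causes were not tested. DFR's rise in shoots at 3 h was lost with the 3′ to 5′ ratio as a covariate (1.11, adjusted p = 0.0669), with all 72 arrays in 1 fit, no filter or no variance trend (1.15 each, adjusted p = 0.309, 0.0695 and 0.0809), with no pseudocount (1.18, adjusted p = 0.0504) and with quantile normalization (1.13, adjusted p = 0.0527). With all 72 arrays in 1 fit DFR's rises in shoots at 6 h (1.42, adjusted p = 0.0956) and 48 h (1.44, adjusted p = 0.0511) also missed, and with the ratio that at 48 h (1.17, adjusted p = 0.232). DFR's late minus early effect in shoots missed with the ratio (0.80, adjusted p = 0.326), no filter or no variance trend (1.00 each, adjusted p = 0.0624 and 0.0667) and no pseudocount (1.00, adjusted p = 0.0534). DFR's organ difference passed at 12 h with the higher pseudocount (-2.0, adjusted p = 0.0231), the stricter filter and the tube block (-2.30 each, adjusted p = 0.0450 and 0.0444), at 72 h with the higher pseudocount (-1.79, adjusted p = 0.0422), and in level at 97 kPa with quantile normalization (-0.77, adjusted p = 0.00129). With the ratio as a covariate UGT78D2 missed in shoots at 12 h (0.70, adjusted p = 0.0547), 48 h (0.32, adjusted p = 0.671) and 72 h (0.55, adjusted p = 0.295), in its late minus early level in 10 kPa roots (-0.36) and 97 kPa roots (-0.51), in its mean organ difference (-0.43) and in its organ level difference at 97 kPa (-0.31). With only the 6 arrays UGT78D2 missed at 12 h (0.76, adjusted p = 0.0913) and 48 h (0.61, adjusted p = 0.0781), and at 48 h also with all 72 arrays, no filter or no variance trend (0.61 each, adjusted p = 0.0554, 0.0565 and 0.0595). With each array left out in turn, DFR in shoots ran from 1.02 to 1.37 at 3 h and from 1.16 to 1.68 at 6 h, and UGT78D2 in shoots from 0.70 to 0.91 at 3 h, 0.41 to 0.98 at 12 h, 0.52 to 0.69 at 48 h and 0.54 to 0.95 at 72 h. With the replicate number as a block no call of DFR or UGT78D2 changed: DFR at 12 h in shoots was again 2.16 (adjusted p = 9.97e-05).

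The number of probe sets called also moved by over 1.5 times. With the ratio as a covariate it was 594 against 3747 in shoots at 48 h, 1010 against 3133 at 72 h, 916 against 2869 for the late minus early effect, 1308 against 4819 for the late minus early level at 10 kPa, 592 against 1001 in roots at 3 h, 2126 against 4014 for the late minus early level in 97 kPa roots, 174 against 329, 230 against 1667, 394 against 1189 and 2089 against 4630 for the organ difference at 3, 48 and 72 h and in the mean, and 6521 against 14282 for the organ level at 97 kPa. With only the 6 arrays it was 1218 against 594, 1744 against 1001, 618 against 1918 and 422 against 1360 in roots at 1, 3, 48 and 72 h, and 1522 against 853 and 1225 against 3747 in shoots at 3 and 48 h. No variance trend gave 115 against 224 in roots and 93 against 159 in shoots for 6 and 12 h minus 1 and 3 h, and all 72 arrays in 1 fit gave 413 against 689 in shoots at 1 h. Leaving out 1 array gave as few as 332 in roots at 1 h and 1264 at 12 h, and in shoots 264 at 1 h, 307 at 3 h, 1222 at 6 h and 716 at 12 h.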
